A study of Mus musculus with 6 samples.

Results

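MERVL and MaLR elements are long terminal repeat (LTR) retrotransposons of the mouse genome, and their transcripts were compared between control and Dnmt1-deficient keratinocytes. Members were all repeat names in the repeat count table that begin with MERVL, MT2, ORR1, MTA to MTE or MLT, which gave 132 of 1067 names. Of these, 120 were among the 938 names with enough reads for a test. The members comprised 7 ERVL names (2 MERVL and 5 MT2), 101 MaLR names (19 MT, 25 ORR1 and 57 MLT1, among them the unnumbered MLT-int), 10 MLT2 names and 14 MLTR names. MLT2 and MLTR names share the MLT prefix, but MLT2 names are LTRs of ERVL type and MLTR names are other mouse LTRs, so both are described apart from the MaLR names.

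The RNA came from epidermal keratinocytes of female mice, isolated at P3 and cultured for 5 days, with 3 control and 3 Dnmt1Δ/Δep libraries after poly(A) selection. The 5 days are those of the methods, whereas a figure legend of the study gives a shorter culture. Dnmt1Δ/Δep mice carried floxed Dnmt1 alleles and a K5-Cre transgene, which is active in basal cells of the epidermis and other squamous epithelia, and were on a mixed C57BL/6J and 129SV background. Controls carried floxed Dnmt1 alleles, on 1 or both chromosomes, without Cre. The labels mark the samples of a group as separate samples, and p-values measure the spread between these samples.

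Endogenous retroviruses consist of an internal part, whose names here end in -int, flanked by LTRs that hold the promoter, and many copies have lost the internal part and remain as solitary LTRs. MERVL, with the internal name MERVL-int and the LTR MT2_Mm, is known for its transcription in the mouse embryo at the 2-cell stage. MaLR elements are relatives of ERVL that do not code for their own proteins: the MT and ORR1 series are found in rodents, whereas MLT1 copies are shared by many mammals and are old and diverged. DNMT1 maintains CpG methylation when DNA is copied, and methylation is one of several layers that keep LTRs silent.

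Dnmt1 itself, the targeted gene, was at 394, 379 and 324 CPM (counts per 1000000 gene reads) in the control libraries and fell to 49.7, 54.3 and 50.7 CPM in those of Dnmt1Δ/Δep mice. Its log2 fold change was -2.83 (SE 0.11; adjusted p = 8.1e-05 by the quasi-likelihood test of edgeR, Benjamini-Hochberg), in the direction the labels give. Gene reads per library ranged from 53433121 to 115526598 and repeat reads from 4940679 to 28673709. Repeat reads per 100 gene reads were 12.2, 8.87 and 9.25 in control and 28.1, 22.7 and 24.8 in Dnmt1Δ/Δep libraries. The summed level of 10 keratinocyte markers was 27822 to 31355 CPM in control and 20584 to 21286 CPM in Dnmt1Δ/Δep libraries and rested mostly on Krt5 and Krt14, both lower (log2 fold changes -0.50 and -0.61; adjusted p = 0.038 and 0.028, edgeR). Krt15 was lower as well (-3.66, adjusted p = 0.019), and 4 of the 10 (Ivl, Lor, Itga6 and Itgb4) had positive log2 fold changes that did not pass the test. Krt1, Krt10 and Trp63 had negative ones that did not pass (-2.30, -1.58 and -0.26; adjusted p = 0.085, 0.069 and 0.38, edgeR). The sums for 6 melanocyte markers were 207 to 546 and 659 to 887 CPM, and those for 6 fibroblast markers 12.2 to 28.0 and 11.96 to 58.8 CPM. For 3 endothelial markers the sums were 4.32 to 16.5 and 13.5 to 20.8 CPM, with Cdh5 and Pecam1 higher (log2 fold changes 4.11 and 1.89; adjusted p = 0.0097 and 0.0075, edgeR) and Kdr at -0.16. For 6 markers of macrophages and dendritic cells they were 0.275 to 0.987 and 2.498 to 4.395 CPM, with Csf1r and Itgam higher (2.67 and 2.35; adjusted p = 0.027 and 0.047, edgeR), Cd74 at 3.30 (adjusted p = 0.14), and Adgre1, Ptprc and Lyz2 too low for the test. Sums for 5 T cell markers were at most 0.0925 CPM. In bulk RNA, fewer cells of a type and less RNA per cell cannot be told apart, and the part of these markers in the results below was not tested.

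Most MERVL and MaLR names did not change detectably. A name was called when its adjusted p was at most 0.05 and its log2 fold change at least 1 in size, in edgeR's quasi-likelihood test fitted over all repeat names. Over all names, 77 of 938 (8.21%) were called higher and 0 lower, whereas 4 of the 120 members tested were called higher and 0 lower. The 4 were MLT1E, MLTR31D_MM, ORR1A0-int and MLTR32C_MM. At the adjusted p alone, 6 members were higher and 2 lower, beside 93 (9.91%) and 7 (0.746%) of all names. The median log2 fold change of the members was -0.02, beside -0.05 for all names tested, and 105 of the 120 members lay within 0.5 of 0. For 100 of the 120 the 95% interval of the log2 fold change lay inside -1 to 1. In the same libraries, 21 of the 24 names of the intracisternal A particle (IAP), an LTR retrotransposon of a different class, were called higher, with a median log2 fold change of 3.89.

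These changes are relative to the bulk of repeat names, because library sizes were scaled within the repeat table. Scaling by gene reads instead moved the median of all names by 0.38 on the log2 scale. Then 7 members and 94 of all names were called higher, the member additions being MERVL-int, ORR1C1 and MLT2B3. At the adjusted p alone 10 members were higher and 0 lower, beside 113 (12%) and 0 of all names. With upper-quartile scaling 3 members were called higher and 2 lower, beside 63 and 10 of all names. At the adjusted p alone upper-quartile scaling turned the split, with 6 members higher and 22 lower, beside 84 (8.96%) and 180 (19.2%) of all names. The 22 lower members comprised 7 MT names, MT2A, 2 ORR1 names, 8 MLT1 names, 3 MLT2 names and MLTR31C_MM. Below, a pass or a miss refers to TMM scaling within the repeat table without a block, unless another setting is named. With the replicate number as a block, 12 members were higher and 13 lower at the adjusted p alone, beside 158 (16.8%) and 97 (10.3%) of all names, while 4 members and 83 of all names were called, all higher.

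**Figure D1:**
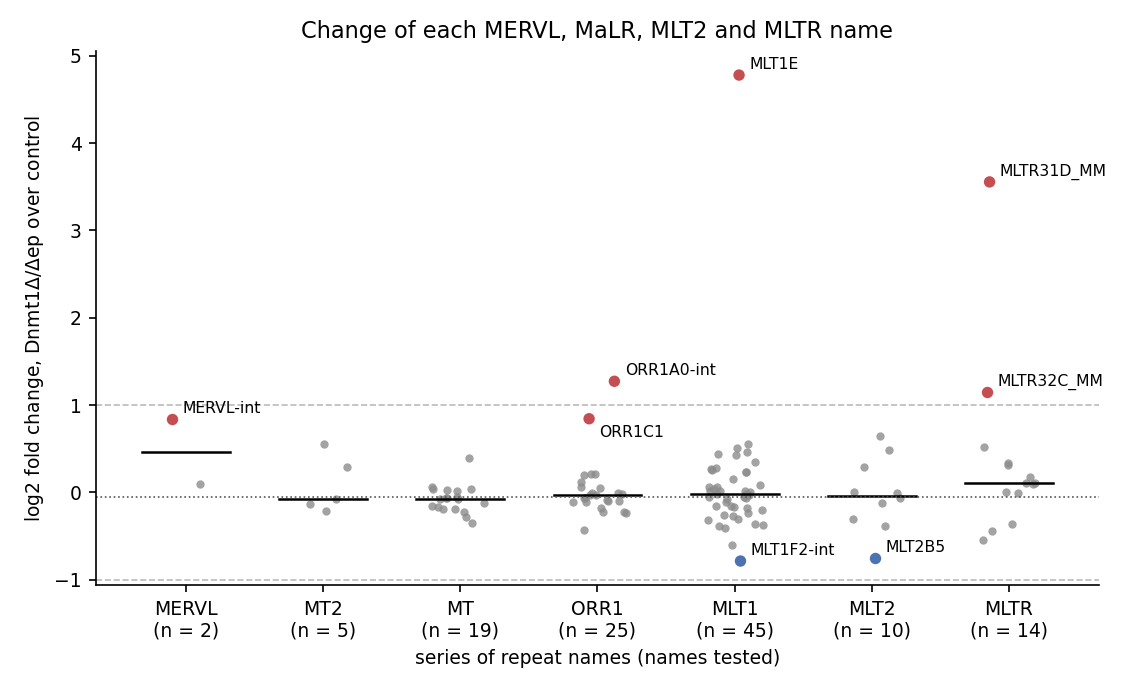
The log2 fold change (Dnmt1Δ/Δep over control, vertical axis) of each of the 120 members tested is plotted by series, with red and blue points for members that passed the adjusted p of 0.05 as higher or lower and grey points for the others. Black lines are medians of a series, the dotted line is the median of all names (-0.05), and the dashed lines at -1 and 1 mark the fold change needed for a call. MLT1E at 4.78 and MLTR31D_MM at 3.55 stand above all other members.

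MLT1E, an old MaLR LTR, showed the largest change of any member. It was at 56.2, 61.6 and 80.5 CPM of repeat reads (scaled as for genes) in the control libraries and at 1455, 2276 and 1699 CPM in the Dnmt1Δ/Δep libraries. Every Dnmt1Δ/Δep library thus lay far above every control library. The log2 fold change was 4.78 (SE 0.24; adjusted p = 8.2e-06, edgeR), a fitted change of 27.4-fold with a 95% interval from 18.6 to 40.5, and ranked 11 among all 938 names. The differences within replicate numbers were 4.69, 5.21 and 4.398 on the log2 scale.

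The closest names to MLT1E did not move with it. MLT1E1, MLT1E1A, MLT1E2 and MLT1E3 had log2 fold changes of -0.26, -0.15, -0.32 and -0.38, with adjusted p-values from 0.29 to 0.55 (edgeR), and their groups overlapped. MLT1E2, the one with the most reads, was at 165, 208 and 206 CPM in control and at 127, 187 and 151 CPM in Dnmt1Δ/Δep libraries. With the block, MLT1E2 and MLT1E3 passed the adjusted p as lower (-0.33 and -0.39; adjusted p = 0.049 and 0.026, edgeR). With upper-quartile scaling MLT1E1, MLT1E2 and MLT1E3 passed as lower (-0.50, -0.57 and -0.63; adjusted p = 0.034, 0.042 and 0.046, edgeR), whereas MLT1E1, MLT1E1A and MLT1E2 turned positive with gene library sizes. MLT1E reads equalled 0.189, 0.169 and 0.223 times the summed reads of these 4 names in control libraries and 6.25, 7.16 and 6.06 times in Dnmt1Δ/Δep libraries. The internal name MLT1E-int had 1 read in the 6 libraries together, and MLT1E2-int, with 7 to 33 reads, had a log2 fold change of -0.39 (adjusted p = 0.61, edgeR).

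The rise of MLT1E shifted the composition of its series. It held 0.919%, 0.943% and 1.28% of all MLT1 reads in control libraries and 21.4%, 25.9% and 23.4% in Dnmt1Δ/Δep libraries. Among the 45 MLT1 names tested it was the only one higher at the adjusted p with TMM scaling and no block, beside 9.91% of all names. MLT1F2-int was the only one lower, beside 0.746% of all names, and the median of the series was -0.02. With gene library sizes MLT1I also passed as higher (0.90, adjusted p = 0.050, edgeR). MLT1I was at 20.01, 23.3 and 26.6 CPM in control and at 32.8, 32.02 and 34.6 CPM in Dnmt1Δ/Δep libraries, with no overlap, and its log2 fold change of 0.51 had an adjusted p of 0.074 (edgeR) that fell to 0.017 with the block and 0.037 with DESeq2. The block also brought MLT1F (0.45) past the adjusted p as higher and MLT1D-int (-0.43), MLT1M (-0.39) and MLT-int (-0.64) as lower.

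**Figure D2:**
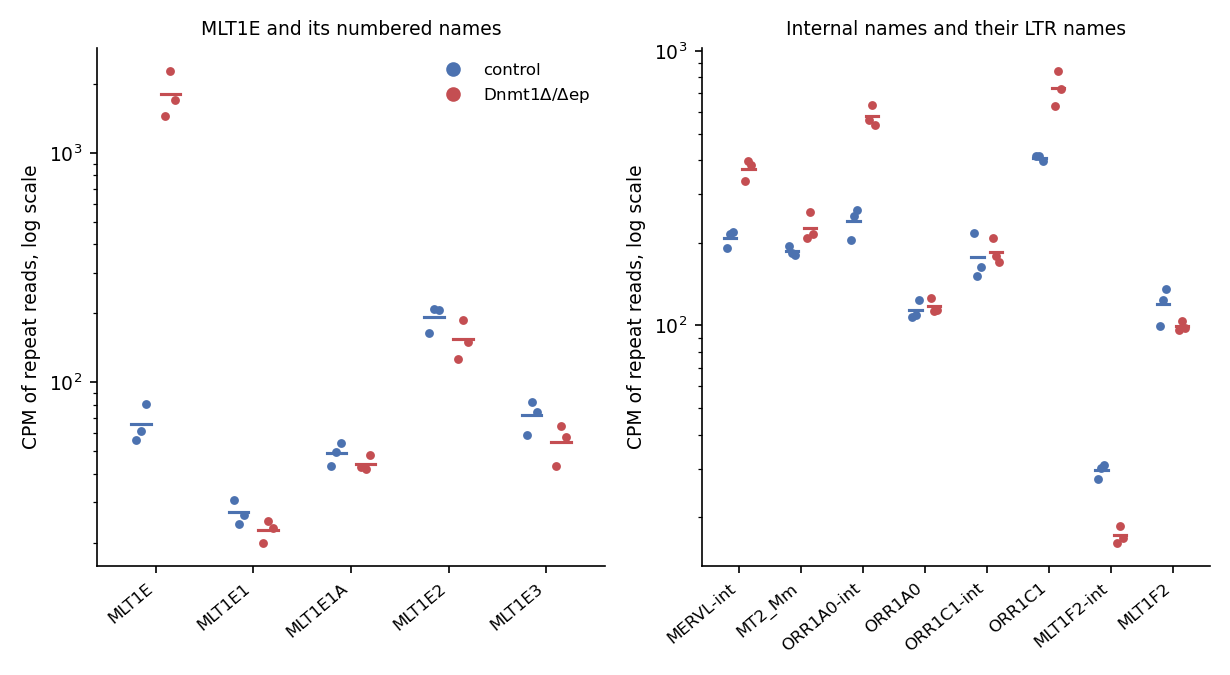
The vertical axis (log scale) gives CPM, counts per 1000000 reads of the repeat library size after TMM scaling. Points are the 3 control (blue) and 3 Dnmt1Δ/Δep (red) libraries, with a line at each group mean. In the left panel MLT1E rises from 56.2 to 80.5 in control to 1455 to 2276 in Dnmt1Δ/Δep libraries while its numbered names overlap, and in the right panel internal names stand beside their LTR names.

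The internal part of MERVL rose, to a smaller extent than a call required. MERVL-int, which codes for the proteins, was at 192, 215 and 218 CPM in control and at 336, 397 and 384 CPM in Dnmt1Δ/Δep libraries, so the groups did not overlap. Its log2 fold change of 0.84 (SE 0.12; adjusted p = 0.0029, edgeR) corresponds to 1.79-fold, with an interval from 1.47 to 2.18, and stayed under the size needed for a call. It crossed that size with gene library sizes (1.21). As an unscaled share of repeat reads, the 2 MERVL names together were lower in Dnmt1Δ/Δep libraries. They took 0.134%, 0.148% and 0.163% in control and 0.0915%, 0.0839% and 0.0990% in Dnmt1Δ/Δep libraries.

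The LTR of MERVL, MT2_Mm, was at 194, 184 and 181 CPM in control and at 209, 258 and 215 CPM in Dnmt1Δ/Δep libraries. These groups also did not overlap, but the log2 fold change of 0.29 (SE 0.13) had an adjusted p of 0.23 (edgeR). The ratio of MERVL-int to MT2_Mm reads was 0.987, 1.17 and 1.21 in control and 1.61, 1.54 and 1.79 in Dnmt1Δ/Δep libraries. This difference had an exact two-sided permutation p of 0.1, the smallest that 3 against 3 libraries allow.

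The other ERVL names did not pass the test. MERVL_2A-int, a related internal name, had a log2 fold change of 0.09 (adjusted p = 0.65, edgeR). Among the MT2 LTRs, MT2C_Mm was at 248, 398 and 353 CPM in control and at 311, 637 and 522 CPM in Dnmt1Δ/Δep libraries, with overlap and a log2 fold change of 0.56 (SE 0.28; adjusted p = 0.28, edgeR). Replicate 1 was the lowest of its group in both genotypes, and MT2C_Mm passed as higher with the block (adjusted p = 0.0074) and with gene library sizes (0.89, adjusted p = 0.021, edgeR). MT2A, MT2B and MT2B2, which took the most reads of the ERVL names, had log2 fold changes of -0.21, -0.08 and -0.14 with adjusted p-values of 0.30, 0.70 and 0.60 (edgeR), all of which turned positive with gene library sizes. With upper-quartile scaling MT2A passed the adjusted p as lower (-0.45; adjusted p = 0.020, edgeR).

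In the ORR1 series, rodent MaLR elements ordered by letter from young to old, 2 of 25 names passed the adjusted p, both as higher, beside 9.91% of all names. ORR1A0-int, the internal name of the youngest ORR1 element, was at 205, 251 and 263 CPM in control and at 560, 638 and 538 CPM in Dnmt1Δ/Δep libraries. The groups did not overlap, and the log2 fold change of 1.27 (SE 0.14; adjusted p = 6.2e-04, edgeR) corresponds to 2.42-fold with an interval from 1.93 to 3.03. The ORR1A0 LTR was at 107, 109 and 124 CPM in control and at 126, 113 and 114 CPM in Dnmt1Δ/Δep libraries, with a log2 fold change of 0.05 (adjusted p = 0.82, edgeR).

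ORR1C1, an LTR name of intermediate age, showed the reverse arrangement. It was at 415, 413 and 397 CPM in control and at 632, 842 and 725 CPM in Dnmt1Δ/Δep libraries, again without overlap, with a log2 fold change of 0.84 (SE 0.13; adjusted p = 0.0043, edgeR). Its internal name ORR1C1-int was at 217, 151 and 163 CPM in control and at 209, 179 and 170 CPM in Dnmt1Δ/Δep libraries, and its log2 fold change was 0.07 (adjusted p = 0.84, edgeR). With gene library sizes ORR1C1 was called (1.19).

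The other ORR1 names had log2 fold changes between -0.43 and 0.21. ORR1A2-int took the most ORR1 reads and was at 2729, 1363 and 1293 CPM in control and at 2191, 1392 and 1014 CPM in Dnmt1Δ/Δep libraries. Both libraries of replicate 1 were at least 1.57 times as high as any other library, and the log2 fold change was -0.23 (SE 0.37; adjusted p = 0.73, edgeR).

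None of the 19 MT names, rodent MaLR elements that run from MTA (young) to MTE (old), passed the adjusted p in edgeR's test, and 1 was higher and 1 lower at an unadjusted p under 0.05 (16% and 7.57% of all names). DESeq2 gave 0 MT names at the adjusted p, gene library sizes 1 higher (MTC-int, 0.73; adjusted p = 0.039, edgeR) and upper-quartile scaling 7 lower. MTD, the member with the most reads, was at 3270, 3072 and 2994 CPM in control and at 3134, 3239 and 3128 CPM in Dnmt1Δ/Δep libraries, with a log2 fold change of 0.02 (95% interval -0.22 to 0.27). MTA_Mm and MTA_Mm-int, the youngest of the series, had log2 fold changes of -0.12 and -0.17 (adjusted p = 0.47 and 0.39, edgeR), and both were among the 7 lower with upper-quartile scaling (-0.37 and -0.41). MTC-int was at 687, 756 and 704 CPM in control and at 790, 1103 and 916 CPM in Dnmt1Δ/Δep libraries, without overlap, with a log2 fold change of 0.39 and an adjusted p of 0.15 (edgeR) that was 0.026 with the block. All 9 MTE names had a negative log2 fold change, between -0.35 and -0.06, beside 517 of all 938 names, and these values are smaller than the shift of 0.38 that gene library sizes bring. With the block MTE-int and MTEa-int passed the adjusted p as lower (-0.29 and -0.35; adjusted p = 0.036 and 0.033, edgeR).

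**Figure D3:**
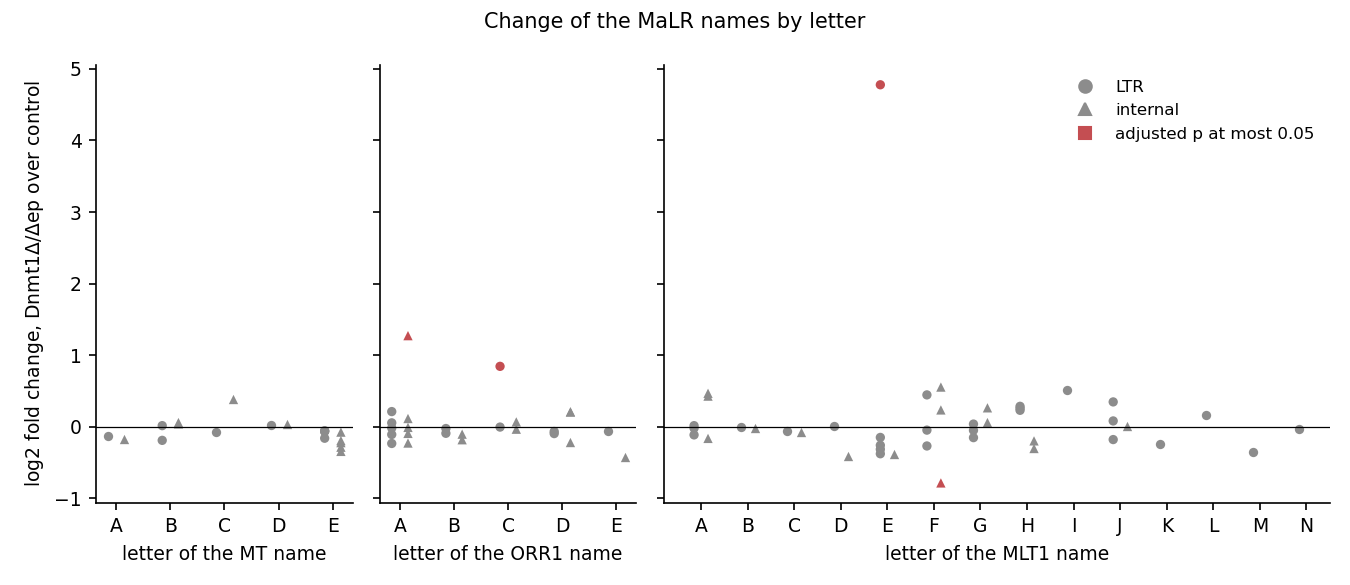
Log2 fold changes (Dnmt1Δ/Δep over control) of the MT, ORR1 and MLT1 names are plotted by the letter in the name, with circles for LTR names, triangles for internal names and red for members past the adjusted p. Apart from MLT1E at 4.78, ORR1A0-int at 1.27, ORR1C1 at 0.84 and MLT1F2-int at -0.79, the plotted names lie between -0.43 (ORR1E-int) and 0.55 (MLT1F1-int). MLT-int (-0.60) and MLT1-int (0.06), which have no letter, are not plotted.

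Members lower at the adjusted p were MLT1F2-int and MLT2B5. MLT1F2-int, an internal name of the old MLT1 series, was at 27.6, 30.3 and 31.0 CPM in control and at 16.2, 18.5 and 16.8 CPM in Dnmt1Δ/Δep libraries (log2 fold change -0.79, SE 0.13; adjusted p = 0.0059, edgeR). MLT2B5, an old ERVL-type LTR, was at 73.3, 79.4 and 66.7 CPM in control and at 38.5, 49.98 and 41.6 CPM in Dnmt1Δ/Δep libraries (log2 fold change -0.76, SE 0.15; adjusted p = 0.015, edgeR). Both were without overlap between the groups. With gene library sizes they lay at -0.42 and -0.41 with adjusted p-values of 0.35 and 0.34 (edgeR), and with upper-quartile scaling both were called (-1.03 and -1.01). The adjusted p of MLT2B5 was 0.051 without Dnmt1Δ/Δep replicate 1 and 0.086 without Dnmt1Δ/Δep replicate 3 (edgeR).

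The remaining MLT2 names did not pass the adjusted p, and the median log2 fold change over all 10 MLT2 names was -0.04. MLT2B3 was at 27.9, 34.8 and 42.8 CPM in control and at 46.2, 64.7 and 54.1 CPM in Dnmt1Δ/Δep libraries. These ranges did not overlap, and the log2 fold change of 0.65 had an adjusted p of 0.096 (edgeR), or 0.010 with the block and 0.039 with DESeq2. MLT2B4 and MLT2C1 had log2 fold changes of 0.29 and 0.01, and MLT2D and MLT2C2 of -0.38 and -0.31, with adjusted p-values from 0.16 to 0.97 (edgeR). With the block MLT2D passed as lower (adjusted p = 0.029), and with upper-quartile scaling both MLT2D and MLT2C2 did (-0.62 and -0.55; adjusted p = 0.023 and 0.024, edgeR).

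Of the 14 MLTR names, 2 were called higher, beside 8.21% of all names. MLTR31D_MM was at 21.7, 24.2 and 31.3 CPM in control and at 200, 384 and 320 CPM in Dnmt1Δ/Δep libraries, and its log2 fold change was 3.55 (SE 0.28; adjusted p = 1e-04, edgeR), rank 23 of all names. It held 1.37%, 1.46% and 1.98% of MLTR reads in control and 13.3%, 18.2% and 17.97% in Dnmt1Δ/Δep libraries. Names of the same number did not move with it. MLTR31FA_MM, MLTR31A_MM and MLTR31F_MM had log2 fold changes of 0.098, 0.0031 and -0.0067, and MLTR31E_MM and MLTR31C_MM of -0.55 and -0.44 (adjusted p = 0.29 and 0.11, edgeR). With the block the latter pair passed the adjusted p as lower (0.010 and 0.019), as MLTR31C_MM did with upper-quartile scaling (-0.69, adjusted p = 0.013).

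MLTR32C_MM rested on few reads, with 28, 23 and 15 in control and 58, 52 and 89 in Dnmt1Δ/Δep libraries. Its levels of 1.79, 1.94 and 2.05 CPM in control and 4.28, 4.32 and 4.11 CPM in Dnmt1Δ/Δep libraries did not overlap (log2 fold change 1.14, SE 0.21; adjusted p = 0.0095, edgeR). Without control replicate 1 the adjusted p was 0.053 and without control replicate 2 it was 0.051. MLTR18C_MM, MLTR25C and MLTR18B_MM had log2 fold changes of 0.52, 0.33 and -0.36 and did not pass the adjusted p in edgeR (0.092, 0.43 and 0.42). MLTR18C_MM passed as higher with the block (0.013) and without Dnmt1Δ/Δep replicate 2 (0.038), and with the block MLTR18B_MM passed as lower (0.026).

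Across all members, 19 were higher in every Dnmt1Δ/Δep library than in any control library and 14 were lower, beside 172 (18.3%) and 126 (13.4%) of all 938 names. ERVL and MaLR names had median log2 fold changes of 0.09 (7 names) and -0.05 (89 names). One of the 7 ERVL names passed the adjusted p as higher, and of the 89 MaLR names 3 passed as higher and 1 as lower, beside 9.91% and 0.746% of all names.

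Summed over names, ERVL reads per 100000 gene reads were 99.3, 78.7 and 82.8 in control and 125, 96.3 and 115 in Dnmt1Δ/Δep libraries. MaLR reads were 593, 425 and 464 in control and 778, 525 and 647 in Dnmt1Δ/Δep libraries. Both sums overlapped between the groups, with means of 86.9 ± 10.9 and 112 ± 14.7 (SD, n = 3) for ERVL and 494 ± 88.1 and 650 ± 126 for MaLR. Within each replicate number the Dnmt1Δ/Δep library was the higher one. As a share of repeat reads the direction turned, since the 132 members took 5.94%, 5.98% and 6.22% in control and 3.37%, 2.89% and 3.24% in Dnmt1Δ/Δep libraries.

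The ratio of ERVL to MaLR reads was 0.167, 0.185 and 0.178 in control and 0.161, 0.183 and 0.177 in Dnmt1Δ/Δep libraries. The groups overlapped, with means of 0.177 ± 0.0090 and 0.174 ± 0.011 (SD, n = 3), although the Dnmt1Δ/Δep library was the lower one within each replicate number. When MLT1E was left out it was the higher one within each, with means of 0.177 and 0.183.

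**Figure D4:**
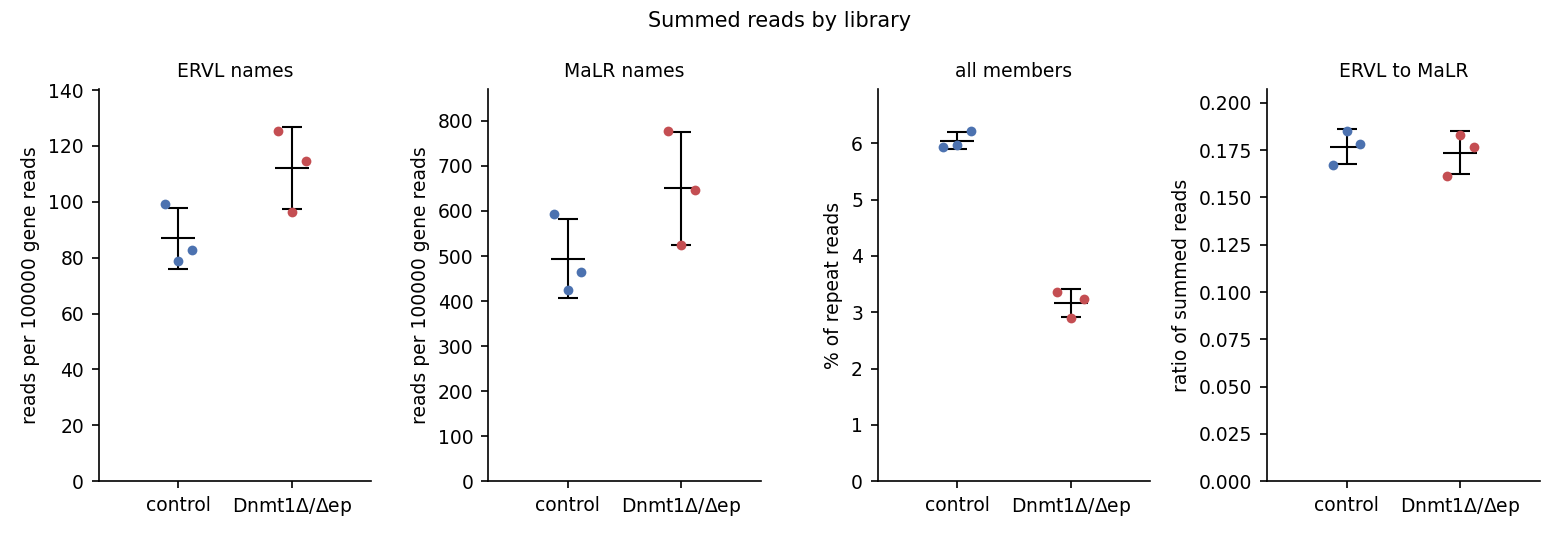
Points are the 3 control (blue) and 3 Dnmt1Δ/Δep (red) libraries, and black bars give the mean and SD. ERVL and MaLR reads per 100000 gene reads overlap between the groups, the share of the 132 names in all repeat reads falls from a mean of 6.04% to 3.17%, and the ERVL to MaLR ratio stays near 0.177 and 0.174.

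Young and old names were compared by series and letter. The 14 young names (MERVL-int, MT2_Mm, MTA and ORR1A names) had a median log2 fold change of -0.01, the 37 names of intermediate age of -0.07 and the 55 old names (MLT1 and MLT2) of -0.02. Of the young names 2 were higher at the adjusted p and none lower (2 higher and 0 lower at an unadjusted p under 0.05, where all names had 16% and 7.57%). The old names had 1 higher and 2 lower, and the names of intermediate age 1 higher, beside 9.91% higher and 0.746% lower of all names. A difference between the ages was not tested.

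The ratio of young to old reads was 1.35, 1.04 and 1.08 in control and 1.17, 0.863 and 0.957 in Dnmt1Δ/Δep libraries. It was lower in the Dnmt1Δ/Δep library of each replicate number, although the groups overlapped. Without MLT1E the ratio was higher in each, at 1.36, 1.05 and 1.10 in control and 1.47, 1.14 and 1.23 in Dnmt1Δ/Δep libraries, so that a single old name set the direction.

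Internal and LTR names of 1 element could be set side by side for 38 pairs of ERVL and MaLR names. The internal name had the larger log2 fold change in 17 of them, and the median difference between internal and LTR name was -0.02. The ratio of internal to LTR reads was higher in every Dnmt1Δ/Δep library for 7 pairs and lower for 3 pairs, beside 12 (22.2%) and 4 (7.41%) of all 54 such pairs in the table. The 54 include the ERVL and MaLR pairs, so this background is not independent of them. No exact permutation p could fall under 0.1 with 3 against 3 libraries, and these 10 pairs had an adjusted p of 0.38 over the 38 pairs. The ratio for ORR1A0 was 1.92, 2.29 and 2.12 in control and 4.45, 5.63 and 4.72 in Dnmt1Δ/Δep libraries. For ORR1C1 the ratio was lower, at 0.523, 0.365 and 0.412 in control and 0.330, 0.212 and 0.234 in Dnmt1Δ/Δep libraries.

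**Figure D5:**
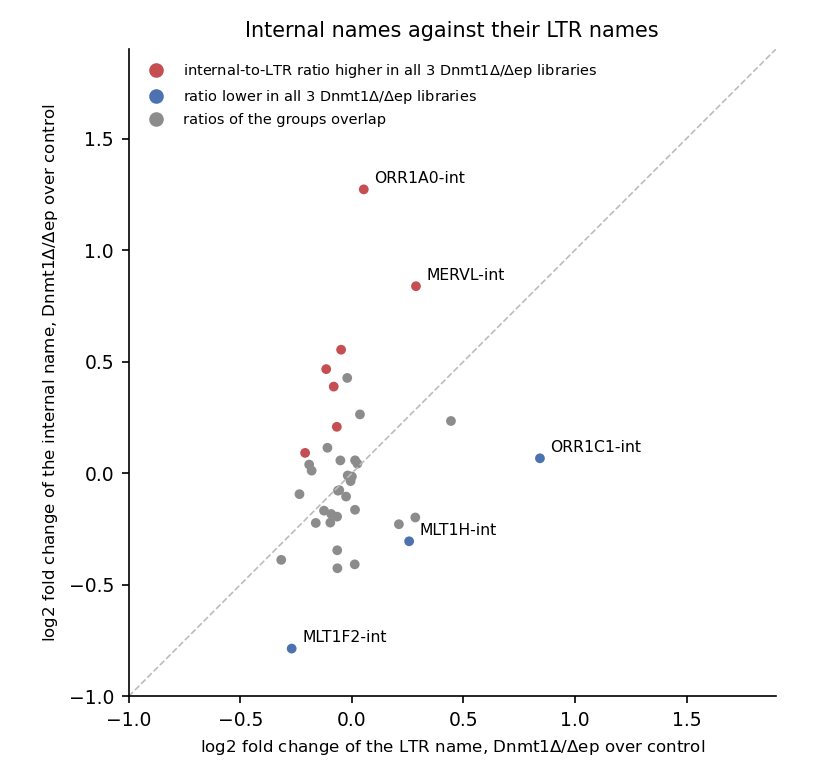
Each point is 1 of 38 pairs, with the log2 fold change (Dnmt1Δ/Δep over control) of the LTR name on the horizontal and of the internal name on the vertical axis, and the dashed line marks equal change. ORR1A0-int and MERVL-int lie above the line and ORR1C1-int, MLT1F2-int and MLT1H-int below it.

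Genes that accompany MERVL transcription at the 2-cell stage were nearly silent. The 29 genes reported here, among them the Zscan4 cluster, Zfp352, the Usp17l genes and Tdpoz genes, each had too few reads for a test. Together they had 7, 6 and 3 reads in control and 28, 29 and 71 reads in Dnmt1Δ/Δep libraries, or 0.065 and 0.487 CPM over each group without scaling factors. Zscan4d had 0 reads in every control library and 2, 1 and 3 reads in Dnmt1Δ/Δep libraries. Several of these genes are near-identical copies, whose reads unique alignment can lose.

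Among listed activators of MERVL, most had few reads, Trp53 being the exception. Duxf3, which encodes the factor DUX, had 1 read in the 6 libraries. Dppa2 and Dppa4, which act upstream of Dux, had 0 reads in each control library, and 4, 12 and 16 reads (Dppa2) and 7, 5 and 3 reads (Dppa4) in Dnmt1Δ/Δep libraries. Both had too few reads for the test, and without the filter on low counts Dppa2 was called higher (adjusted p = 0.012, edgeR). Gata2, with 2, 8 and 4 reads in control and 17, 16 and 25 in Dnmt1Δ/Δep libraries, had a log2 fold change of 1.93 (SE 0.55; adjusted p = 0.075, edgeR). Trp53, which encodes p53, had mean levels of 104.5 (control) and 111.6 CPM and did not pass the test (0.10, adjusted p = 0.67, edgeR).

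All 31 listed genes for silencers of these elements were expressed. One was called higher and none lower, beside 6.03% and 0.392% of the 16829 genes tested, and at an unadjusted p under 0.05 it was 2 and 5 genes (15.8% and 7.79% of all genes). The list had a median log2 fold change of -0.14. Suv39h2, an H3K9 methyltransferase, was between 14.1 and 19.3 CPM of gene reads in the 3 control libraries and between 33.9 and 49.0 CPM in the 3 Dnmt1Δ/Δep libraries (log2 fold change 1.38, SE 0.18; adjusted p = 0.0046, edgeR), without overlap. Its paralog Suv39h1 and Chaf1b, a subunit of the chromatin assembly factor CAF-1, were lower at the adjusted p alone, at -0.46 and -0.42 on the log2 scale (adjusted p = 0.045 and 0.046, edgeR). At the adjusted p alone the list thus had 1 gene higher and 2 lower, beside 7.71% and 1.66% of all genes. Trim28 and Setdb1, the corepressor and the H3K9 methyltransferase of the KRAB zinc finger pathway, had log2 fold changes of -0.13 and -0.08 (adjusted p = 0.62 and 0.71, edgeR), and the nucleolin gene Ncl, the list's gene with the most reads, of -0.14 (adjusted p = 0.81, edgeR).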

How the data were processed

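Poly(A) RNA of 6 keratinocyte libraries, 3 per group, was analysed. For the gene table the authors aligned reads with STAR, counted unique alignments per gene with htseq-count and deposited raw counts. The deposited repeat counts are raw as well. They come from the authors' bowtie alignment to MGSCv37, after which RepEnrich distributed reads with 1 or many positions over repeat names, so that close names can share reads and positions of single copies are lost. The table names no class, so families were read from the names. Tables of the authors' comparisons (means, log2 fold changes and p-values) were not used. The 5 entries of the gene table that name no gene held 8.73% to 12.9% of its reads and were left out. Of 43629 gene identifiers, 97.3% had a symbol.

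Counts were tested with edgeR 4.0.16 in R 4.3.3 (glmQLFit, glmQLFTest) after TMM scaling within each table and filterByExpr (minimum counts 10 and 15), with Benjamini-Hochberg adjustment over all features of a table. CPM are counts over filtered library size times TMM factor. DESeq2 1.42.0 served as an alternative. The methods name both tools. The code of the fit was also run on simulated data, with an outcome that is not reported here. Standard errors are the absolute log2 fold change divided by the root of the F statistic. A count of 0 allows up to 3 counts, and depth limits cover counting error only.

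Replicate numbers share a flow-cell lane by the headers of the gene table. Deviations from group means correlated within numbers (members 0.649, 0.567 and 0.544, genes 0.460, 0.364 and 0.303 for replicates 1, 2 and 3), so a block by number was an alternative. No 2 libraries of a group agreed within sampling noise.

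Members and lists were chosen with earlier results of these data known. Named members are those at the adjusted p, the MERVL, MT2, MTA, ORR1A0 and MLT1E names, the 3 largest changes in each direction per family with a mean of at least 50 counts and the 3 names with most reads in ERVL and MaLR. MTC-int, MTE-int, MTEa-int, MLT1I, MLT1F, MLT1F1-int, MLT1D-int, MLT1M, ORR1C1-int, MLT1H-int, MLTR31A_MM, MLTR31F_MM and MLTR31FA_MM were named after their values were seen. The 12 untested members were MLT1 internal names with few reads. Sequences of the repeats were not used here, and 1 gene of the 2-cell list is not reported here.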

Additional observations from a re-analysis of the deposited data

How the results depend on the processing

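The number of members called stayed at 3 to 5 in every alternative except library sizes from the gene counts, which gave 7, and 3 or 4 when any 1 library was left out. At the adjusted p alone, 8 members rose to 28 with upper-quartile scaling and to 25 with the replicate block, while the other alternatives gave 7 to 10. Among 479 combinations of a named member and an alternative, 447 kept direction and call. Calls were gained with gene library sizes by MERVL-int, ORR1C1 and MLT2B3 and with upper-quartile scaling by MLT2B5 and MLT1F2-int as lower, and lost by MLTR32C_MM with upper-quartile scaling (0.90) and without control replicate 1 or 2. MLTR32C_MM also fell below a mean of 50 counts. Apart from the counts at the adjusted p alone, the replicate block changed no count of calls by more than 1.5 times. The cause of these shifts was not tested.

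With gene library sizes the median log2 fold changes were 0.45 (ERVL), 0.33 (MaLR), 0.35 (young) and 0.35 (old), and with upper-quartile scaling -0.16, -0.29, -0.26 and -0.26. Without single libraries the median of the old names ranged from -0.0995 to -0.0124. Changes of sign are given here only for the members named by the rule above, and other names changed sign as well. Log2 fold changes that turned positive with gene library sizes were those of MT2B (0.27), MT2B2 (0.22), MT2A (0.15), MTA_Mm (0.24), MTA_Mm-int (0.19), MLT1E1 (0.074), MLT1E1A (0.24), MLT1E2 (0.034), MLT2C2 (0.062), MTC (0.29) and ORR1A2-int (0.15). Upper-quartile scaling turned those of MERVL_2A-int (-0.16), ORR1A0 (-0.19), MLT2C1 (-0.23) and MTD (-0.22) negative, and MLT2C1 also lay below 0 with DESeq2 (-0.0028) and without the filter on low counts (-0.0057). Leaving out single libraries gave ranges across 0 for ORR1A0 (-0.030 to 0.11), ORR1E-int (-0.69 to 0.059), MLT2C1 (-0.056 to 0.043), MTD (-0.013 to 0.037) and ORR1A2-int (-0.58 to 0.17).

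Per repeat read, the mean of summed reads in Dnmt1Δ/Δep over that in control libraries was 0.513 for ERVL, 0.524 for MaLR, 0.476 for MLT2 and 0.568 for MLTR names, against 1.29, 1.32, 1.198 and 1.42 per gene read. Without single libraries the values per gene read ranged from 1.21 to 1.39 for ERVL, 1.19 to 1.46 for MaLR and 1.11 to 1.29 for MLT2 names, and without MLTR18B_MM the MLTR value was 1.65. For the ERVL to MaLR ratio, Dnmt1Δ/Δep over control was 0.982, or 1.015 without MT2B and MTD, and 0.955 to 1.018 without single libraries. For the young to old ratio it was 0.861, or 1.144 without ORR1A2-int and MLT1E, 0.946 without the ORR1A2, ORR1A3 and ORR1A4 names, and 0.786 to 0.937 without single libraries. Leaving out MLT1E, a choice made after seeing the data, gave 1.033 and 1.094. As differences within replicate numbers, the replicate block for a ratio, the values were 0.982 and 0.859.

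Of the activators 0 were called, but 1, Dppa2, was with DESeq2 and without the filter on low counts, and 0 to 1 without single libraries. With 3 libraries a group, low names such as MLTR32C_MM and the internal MLT1 names carry wide intervals, and no exact permutation test can reach 0.05.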
